A study of Mus musculus with 9 samples.

Results

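The Notch pathway genes examined here are 9 mouse genes: the receptors *Notch1*, *Notch2* and *Notch3*, the ligands *Dll1* and *Jag1*, the nuclear effector *Rbpj*, and the target genes *Hes1*, *Hes5* and *Hey1*. The study carried out ChIP-seq on neural stem cells (NSCs) from female mice for CTCF, the zinc finger protein found at insulators and at the borders of chromatin domains. A merged peak was assigned to a gene when it overlapped the gene body or the 10 kb on either side of it, with gene bodies taken from GENCODE M21 on GRCm38. This rule found 85 of the 225769 merged peaks, and each of the 9 genes had at least 2.

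The NSCs were primary lines grown from the cortices of C57Bl/6 E14.5 embryos and used within 10 passages, and each library came from an independent line. SMCHD1 is a non-canonical SMC protein with roles in silencing of the inactive X chromosome and of clustered autosomal genes. Control lines were homozygous for an *Smchd1* allele fused to GFP (Smchd1 GFP/GFP, 3 libraries). MommeD43-GFP lines (the point mutant) were homozygous for that tagged allele carrying the MommeD43 point mutation (3 libraries). Smchd1 del/del lines (the null, 2 libraries) had been floxed cells that were transduced in culture with a Cre and puromycin-resistance retrovirus and selected with the drug. For the null, the loss of *Smchd1*, the retrovirus with its selection, and the absence of the GFP tag cannot be told apart. A further library was input from a control line, and it has no value in the deposited table.

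The deposited table gives 1 value per genotype and peak: the log2 of reads per M, averaged by the authors across each genotype's libraries and not scaled by peak length. It gives no value for a single library, so no SD could be computed, no difference could be checked against the spread between lines, and none has a p-value. To recover reads, the lowest value of each column was assumed to stand for 0 reads, entered as 0.9, in every library of the genotype. This assumption gave the size of the libraries (geometric means of 41.7 M reads for control, 49.2 M for MommeD43-GFP and 49.98 M for the null). The reads behind each value followed from that size. The errors given with ± are counting standard errors (SE) computed from those reads. They cover the counting of reads only and are therefore a lower limit on the true error. At a peak of median level, with 30.0, 34.9 and 34.5 reads per library in that order, the SE of a level was 0.15 in control and in MommeD43-GFP and 0.18 in the null. CTCF occupancy is not expression, and no value in the table allows the cell type or the activity of the pathway to be checked.

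Notch signalling passes between touching cells. A DLL or JAG ligand on one cell binds a NOTCH receptor on its neighbour, the receptor is cut, and its intracellular domain enters the nucleus and joins RBPJ on DNA, where it switches on repressors of the HES and HEY families. In the embryonic cortex this pathway is known for keeping neural stem cells undifferentiated, because HES1 and HES5 hold back proneural genes. CTCF binds a long DNA motif with several of its zinc fingers and, together with cohesin, anchors chromatin loops.

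The sequences below are those of the peaks that the results turn on, read from GRCm38, each 30 bases long and written 5′ to 3′ on the strand of the motif. Capitals mark the CTCF motif match. A core CTCF motif of 12 letters and a relaxed form, which keeps only the opening CC, the central AG and the closing GGC, were searched on both strands. Every core match is also a relaxed match.
*Hey1*, the only core match among the 85 peaks, in a coding exon, chr3:8664683-8664712, plus strand: cccaagccgCCACTAGGGGGCgctcgcaag
*Jag1* promoter peak, relaxed match in an intron, chr2:137114802-137114831, plus strand: aggaaggggCCGGCAGGGGGCggaggttcc
*Jag1* promoter peak, relaxed match upstream of the gene, chr2:137116654-137116683, minus strand: attgtgttaCCTGCAGCCGGCcggcgagct
*Jag1* promoter peak, relaxed match upstream of the gene, chr2:137116803-137116832, minus strand: ggggcgtgcCCAATAGATGGCacgcccctt
*Jag1* promoter peak, relaxed match upstream of the gene, chr2:137117550-137117579, plus strand: gggactgcaCCTGTAGGCGGCctccgcgct
*Dll1* promoter peak with the higher null value, relaxed match in an intron, chr17:15376544-15376573, plus strand: gaggagtctCCCGGAGGGGGCgggggcggg
*Rbpj*, tallest peak, relaxed match downstream of the gene, chr5:53658084-53658113, plus strand: taaaaatgtCCACAAGGTGGCtggctcgcc

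A core motif lay in 1 of the 85 peaks, or 1.18% (95% exact binomial interval 0.0298 to 6.38%), against 8560 of all 225769 peaks, or 3.79%. The relaxed form lay in 24 peaks (28.2%), against 24.5% of all peaks. Long peaks have more room for a motif, so the share was also read by length. The genes held 8 peaks of 5 kb or more, and none of them held a core motif, whereas 35.7% of all peaks of that length did. The relaxed form lay in 6 of those 8 peaks (75%), against 93.3% of all peaks of that length. In the class from 2 to 5 kb a core motif lay in 1 of 11 peaks, the *Hey1* peak, against 14.7% of all peaks of that length. These shares describe letters in a window and are no measure of binding.

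The peaks of these genes were longer than peaks in general and, on levels not scaled by length, higher. Their median length was 1050 bp, against 750 bp over all peaks. Of the 85, 62 (72.9%) lay at or above the level that splits all peaks evenly. At like length they were not taller throughout. Their median level was -0.86 against -0.92 over all peaks under 1 kb, and 0.38 against 0.38 from 1 to 2 kb. From 2 to 5 kb it was 1.85 against 1.95, and at 5 kb or more 3.42 against 3.59. The median GC content of the 85 peaks was 48.6%, against 47.8% over all peaks. Levels at the genes spanned a wide range, as the plot of levels by gene shows.

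**Figure D1:**
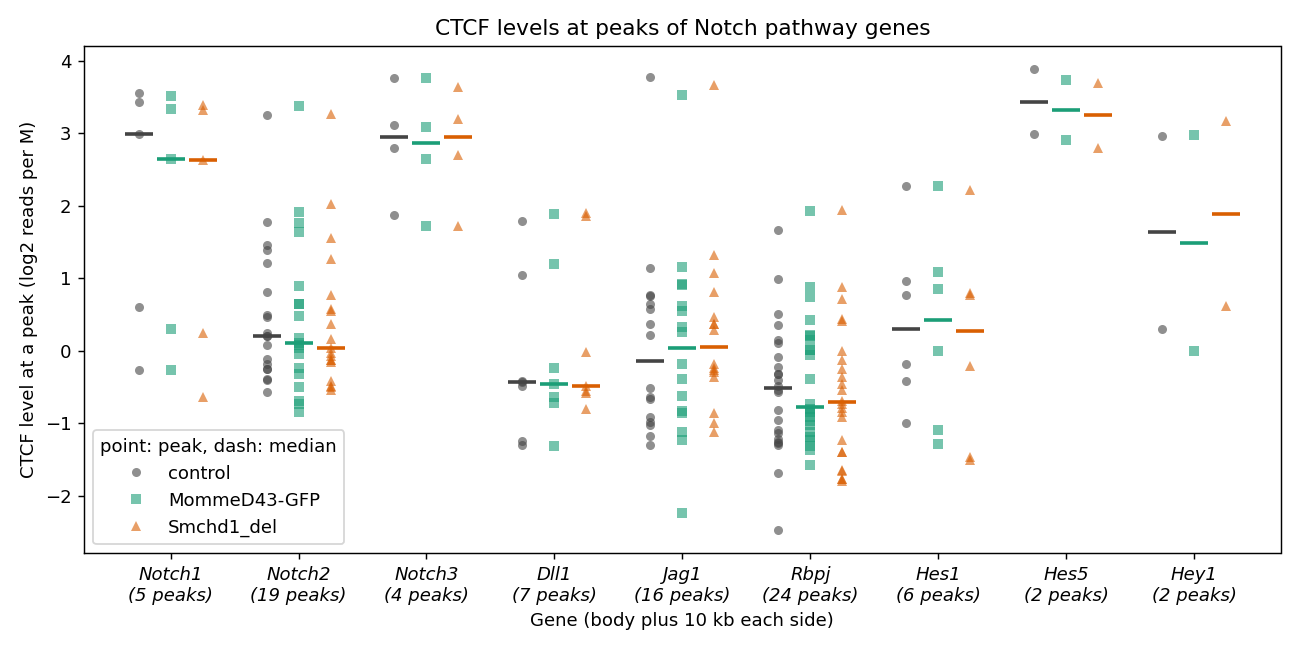
CTCF level (log2 reads per M of library, vertical axis) at each of the 85 peaks, by gene, in control (grey circles), MommeD43-GFP (green squares) and Smchd1_del, the null (orange triangles), with a dash at the median. *Notch1*, *Notch3* and *Hes5* had the highest medians, the 24 peaks of *Rbpj* lay lowest, and within each gene the peaks differed from each other far more than the genotypes did.

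To compare genes, levels were divided by length: the reads per M summed over a gene's peaks, per kb of peak. In control NSCs *Notch3* was highest on this scale at 2.06 reads per M per kb, and *Hey1* followed at 1.95. *Hes1* (1.47), *Notch1* (1.43), *Hes5* (1.43) and *Jag1* (1.37) lay close together. *Notch2* had 1.15, *Rbpj* 1.01 and *Dll1* 0.905. MommeD43-GFP NSCs also had *Notch3* (1.99) and *Hey1* (1.90) at the top and *Rbpj* (1.09) and *Dll1* (0.974) at the bottom. In the null *Hey1* (2.25) was above *Notch3* (1.97), and *Dll1* (1.16) was above *Notch2* (1.12) and *Rbpj* (1.01). Without single libraries it cannot be said which neighbours in this order differ beyond the spread between lines.

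Peaks were densest at the ligand *Jag1*, with 29.0 peaks per 100 kb of gene and flanks, then at *Hes1* (25.6) and *Dll1* (23.7). They were sparsest at *Notch3* (6.06) and *Notch1* (6.35), where a few broad peaks held the signal. This order counts merged peaks and not covered length: the 5 peaks of *Notch1* covered 22.95 kb and the 16 of *Jag1* 21.3 kb. No density over the genome was computed. A promoter peak is here a peak within 1 kb of the start of a coding transcript of the gene. None of the 3 receptors had one, and each of the other 6 genes did. The nearest peak stood 23.1 kb from a coding start at *Notch1*, 5.61 kb at *Notch2* and 1.18 kb at *Notch3*. Of all 21853 protein-coding genes, 10936 (50.04%) had a promoter peak, against 6 of these 9 (66.7%).

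*Notch1* (chr2:26457903-26516663, minus strand), which encodes a main receptor of neural stem cells, had 5 peaks, all in the 3′ part of the gene or downstream of it. The tallest, a peak of 8.1 kb over exons and introns (chr2:26472601-26480700), stood at 3.55 in control, 3.51 in the point mutant and 3.39 in the null. The peak over the 3′ end of the gene (chr2:26459401-26465700) stood at 2.99, 2.64 and 2.63 in the same order. It was therefore lower than control by 0.35 ± 0.07 in MommeD43-GFP and by 0.36 ± 0.07 in the null, with overlapping values in the mutants. All 5 *Notch1* peaks were below control in MommeD43-GFP (median -0.10, range -0.35 to -0.01) and all 5 in the null (median -0.36, range -0.37 to -0.12). Both comparisons share the control value. The peaks downstream of *Notch1* overlap the neighbouring gene *0610009E02Rik*. The longest of those (chr2:26445601-26452050) lies within 1 kb of the starts of *Sec16a* and *0610009E02Rik*. It held 10.8 of the 32.8 reads per M summed over the *Notch1* peaks in control. Summed over the 5 peaks, the CTCF signal was 0.14 ± 0.03 lower in MommeD43-GFP and 0.21 ± 0.04 lower in the null on the log2 scale. These peaks are GC-rich, at a median of 51.1%, and with the differences centred within 20 bins of GC content the *Notch1* medians came to -0.03 and -0.20. Whether GC content has a part in the difference was not tested.

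*Notch2* (chr3:98013527-98150361, plus strand), the receptor with the longest gene body of the 3, had 19 peaks, all at or above the median level. Its tallest peak (chr3:98096851-98103750) stood at 3.25 in control, 3.38 in the point mutant and 3.26 in the null, a difference of 0.12 ± 0.06 and 0.01 ± 0.06. The largest difference at the gene was at its 3′ end (chr3:98146801-98148900), where the value was 1.21 in control, 0.89 in the point mutant and 0.37 in the null. The null was 0.85 ± 0.15 below control there, a 1.80-fold difference. An intronic peak (chr3:98034601-98035350) stood apart in the point mutant, at -0.26 in control, -0.85 in the point mutant and -0.07 in the null, although the MommeD43-GFP difference of -0.59 ± 0.21 rested on 34.8 reads per library in control and fewer in the mutant. The 19 differences had a median of -0.10 in MommeD43-GFP and 0.01 in the null.

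*Notch3* (chr17:32120820-32166852, minus strand), a receptor known from vascular smooth muscle and also present in neural progenitors, had 4 peaks, all tall. The tallest (chr17:32139001-32145750) stood at 3.76, 3.76 and 3.64 in control, MommeD43-GFP and the null, and its level was above 99.0% of all merged peaks. That rank is not scaled by length. The peak is 6.75 kb long with a mean level of 3.72, and all peaks of 5 kb or more had a median of 3.59. No difference from control at *Notch3* exceeded 0.16 in either direction. The lowest of the 4 peaks, downstream of the gene (chr17:32118001-32119650), stood at 1.87, 1.72 and 1.72.

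Of the ligands, *Dll1* (chr17:15367354-15376872, minus strand), whose product activates Notch receptors on neighbouring progenitors, carried the largest difference at any promoter. The peak over its 5′ end (chr17:15376351-15378900, overlapping the long non-coding RNA gene *A930024N18Rik*) stood at 1.04 in control, 1.19 in the point mutant and 1.91 in the null, from 85.9, 112.6 and 187.2 reads per library. The null was thus 0.86 ± 0.12 above control (1.82-fold, 95% counting interval of the log2 difference 0.63 to 1.09), whereas MommeD43-GFP differed from control by 0.15 ± 0.12. The point mutant was 0.71 ± 0.11 below the null. A second promoter peak within the gene (chr17:15372001-15375450), the tallest of the locus by its mean over genotypes but not in the null, stood at 1.79, 1.89 and 1.86 and showed no such step. The 5 peaks downstream of *Dll1* were low, and the one with the largest difference (chr17:15362551-15362850) stood at -1.30 in control, -0.72 in the point mutant and -0.56 in the null. In the null 5 of the 7 *Dll1* peaks were above control (median 0.44), against 46.6% of all merged peaks, and the summed signal was 0.36 ± 0.06 higher. In MommeD43-GFP the median was 0.10 and the summed signal 0.11 ± 0.06 higher.

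The RefSeq sequence upstream of *Dll1* within that peak is printed because the peak covers it (GRCm38.p6, chr17:15376933-15377182, minus strand). It was searched on both strands for TGGGAA, the core of the RBPJ binding site, and held no match.
*Dll1*: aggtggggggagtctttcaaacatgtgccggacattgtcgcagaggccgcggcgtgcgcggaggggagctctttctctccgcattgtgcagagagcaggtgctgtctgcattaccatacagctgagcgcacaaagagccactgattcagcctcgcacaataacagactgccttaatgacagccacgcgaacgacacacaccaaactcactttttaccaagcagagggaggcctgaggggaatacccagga

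*Jag1* (chr2:137081456-137116644, minus strand), the other ligand, had 16 peaks dominated by a broad one over its promoter (chr2:137113351-137118600). This peak, which holds the 4 relaxed matches printed above, stood at 3.78 in control, 3.53 in the point mutant and 3.66 in the null, and its level was above 98.8% of all merged peaks. That rank is not scaled by length. The peak is 5.25 kb long with a mean level of 3.66, and all peaks of 5 kb or more had a median of 3.59. The promoter peak was 0.25 ± 0.05 below control in MommeD43-GFP and 0.12 ± 0.05 below in the null. With GC bins centred these differences came to -0.11 and 0.04, at a GC content of 57.4% for the peak. The other 15 peaks lay between -1.30 and 1.15 in control. Among them an intronic and exonic peak (chr2:137092651-137093400) stood at -0.98 in control and at -0.19 and -0.18 in the mutants, which is 0.79 ± 0.22 and 0.80 ± 0.24 above control. A downstream peak of 300 bp (chr2:137076601-137076900) was low in the point mutant alone, at -1.03 in control, -2.24 in the point mutant and -1.12 in the null. The MommeD43-GFP value rested on 10.4 reads per library and was 2.31-fold below control (difference -1.21 ± 0.32). In the null 12 of the 16 differences were above 0, against 46.6% over all merged peaks. The median of the 16 was 0.22 in the null and -0.01 in MommeD43-GFP.

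*Rbpj* (chr5:53466152-53657362, plus strand), the DNA-binding effector on which all Notch receptors act, had 24 peaks over 191.2 kb of gene. Most were low and intronic, with 11 at or above the median level of all peaks. The tallest lay just downstream of the gene (chr5:53657551-53659500) at 1.66 in control, 1.92 in the point mutant and 1.95 in the null. The promoter peak (chr5:53590951-53592150), at the internal start of coding transcripts 125.4 kb from the outermost start, stood at 0.50, 0.88 and 0.43, so that MommeD43-GFP was 0.37 ± 0.14 above control and the null -0.07 ± 0.16 from it.

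Of the 85 peaks, 6 (7.06%) were at least 2-fold apart in some comparison, against 7.73% of all merged peaks, and 4 of these lay in introns of *Rbpj*, which holds 24 of the 85. The tallest of the 4 (chr5:53593801-53594850) stood at -0.33 in control, 0.20 in the point mutant and 0.71 in the null. It was 0.52 ± 0.18 above control in the point mutant and 1.04 ± 0.18 above it in the null (2.06-fold), 2820 bp from the coding start. It has a GC content of 37.7%, the lowest of the 85 peaks, and with GC bins centred the null difference was no longer 2-fold. A peak of 300 bp (chr5:53615701-53616000) stood at -2.48 in control, -1.32 in the point mutant and -1.77 in the null, from 7.49, 19.7 and 14.7 reads per library. At the remaining *Rbpj* pair the null was below control: the value was -0.57, -1.19 and -1.77 at chr5:53520151-53520750, which overlaps *Gm10441*, and -0.49, -0.83 and -1.65 at chr5:53645101-53645700. Those null differences were -1.19 ± 0.31 and -1.16 ± 0.30. Neither peak held a relaxed motif, and neither did any other of the 6. Over all 24 *Rbpj* peaks the median difference was 0.13 in MommeD43-GFP and -0.06 in the null, the latter 0.01 with the loess trend on level removed.

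The target genes had few peaks. *Hes1* (chr16:30064384-30067796, plus strand), a repressor whose oscillating expression marks cycling progenitors, had 6. Its promoter peak (chr16:30065401-30067800), the tallest, stood at 2.27, 2.27 and 2.22 in control, MommeD43-GFP and the null and did not differ beyond counting error (0.00 ± 0.08 and -0.05 ± 0.09). A peak of 600 bp downstream of the gene (chr16:30069601-30070200) stood at -0.42, -1.09 and -1.47, which is 0.67 ± 0.23 below control in MommeD43-GFP and 1.05 ± 0.28 below in the null. With GC bins centred this null difference came to -0.90 and was no longer 2-fold, at a GC content of 57.7% for the peak. In the null 5 of the 6 *Hes1* peaks were below control, with a median of -0.12, which came to 0.00 with GC bins centred. Over all merged peaks 46.6% were above control in the null.

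*Hes5* (chr4:154960923-154962371, plus strand), a Notch target typical of neural stem cells, lay entirely within a broad promoter peak (chr4:154958701-154964100) at 2.98 in control, 2.8998 in the point mutant and 2.80 in the null. A peak of 10.5 kb beside it (chr4:154965001-154975500), overlapping the neighbouring gene *Pank4*, stood at 3.89, 3.73 and 3.69, the highest mean over genotypes of the 85 peaks, although in MommeD43-GFP the tallest *Notch3* peak was higher (3.76). The promoter peak overlaps *Gm20421*, and both peaks lie within 1 kb of the start of *Pank4*. The peak of 10.5 kb held 14.8 of the 22.7 reads per M summed over both in control. Summed over both peaks, the signal was 0.13 ± 0.04 below control in MommeD43-GFP and 0.19 ± 0.04 below in the null. With GC bins centred the median differences of the 2 peaks were -0.00 and -0.03. The RefSeq upstream sequence of *Hes5* within the promoter peak (GRCm38.p6, chr4:154960673-154960922, plus strand) is shown for its 2 matches to the RBPJ site core. They are in capitals, as TGGGAA or its reverse complement TTCCCA. Of 32851 promoters in that RefSeq table, 21.6% held the core on either strand. Overlapping upstream sequences of *Rbpj*, which lie in no peak, held 2 matches (chr5:53590096-53590345) and 1 match (chr5:53590236-53590485). Those of the other genes with an entry held no match.
*Hes5*: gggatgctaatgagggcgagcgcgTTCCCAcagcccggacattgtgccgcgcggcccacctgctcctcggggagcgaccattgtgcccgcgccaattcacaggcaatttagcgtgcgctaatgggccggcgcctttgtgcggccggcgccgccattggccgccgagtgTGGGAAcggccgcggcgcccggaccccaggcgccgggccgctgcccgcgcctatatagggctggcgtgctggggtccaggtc

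*Hey1* (chr3:8663359-8667256, minus strand), a repressor related to the HES proteins, had 2 peaks. The taller (chr3:8661901-8665350), which holds the core motif printed above, stood at 2.97, 2.97 and 3.16 and was 0.19 ± 0.07 above control in the null. The promoter peak (chr3:8667301-8668500) stood at 0.30 in control, -0.00 in the point mutant and 0.61 in the null. Its mutant values lay on opposite sides of control and were 0.61 ± 0.17 apart, while neither differed from control beyond its 95% counting interval (-0.63 to 0.02 for MommeD43-GFP and -0.01 to 0.63 for the null).

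**Figure D2:**
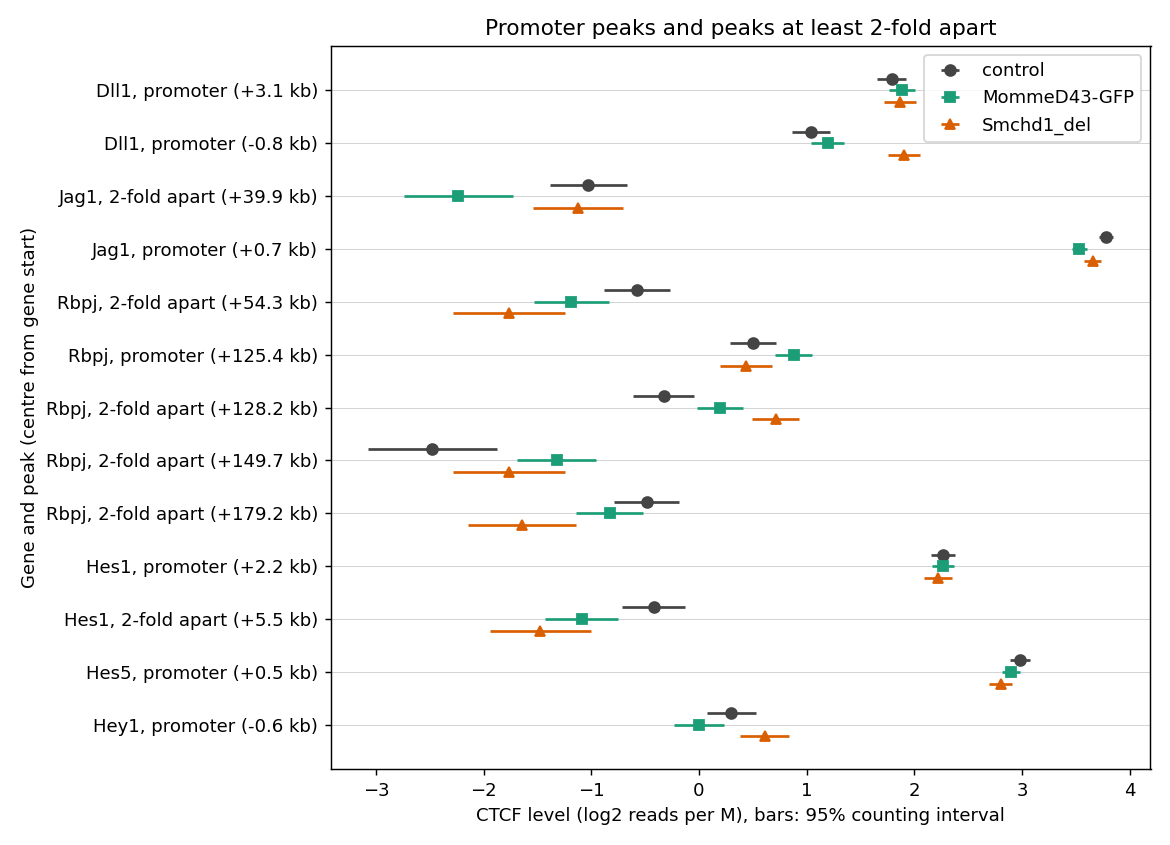
CTCF level (log2 reads per M of library, horizontal axis) at the 7 promoter peaks and the 6 peaks at least 2-fold apart in some comparison, named by gene and by the distance of the peak centre from the outermost gene start, in control (grey circles), MommeD43-GFP (green squares) and Smchd1_del (orange triangles). Bars are 95% counting intervals of each pooled value, and among the promoter peaks the null stood furthest from the other genotypes at *Dll1* (1.91 against 1.04 and 1.19).

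Across the 7 promoter peaks, differences from control ran from -0.30 at *Hey1* to 0.37 at *Rbpj* in MommeD43-GFP, and from -0.18 at *Hes5* to 0.86 at *Dll1* in the null. No promoter peak was 2-fold apart in any comparison. The plot of differences along each gene shows where the larger values lie.

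**Figure D3:**
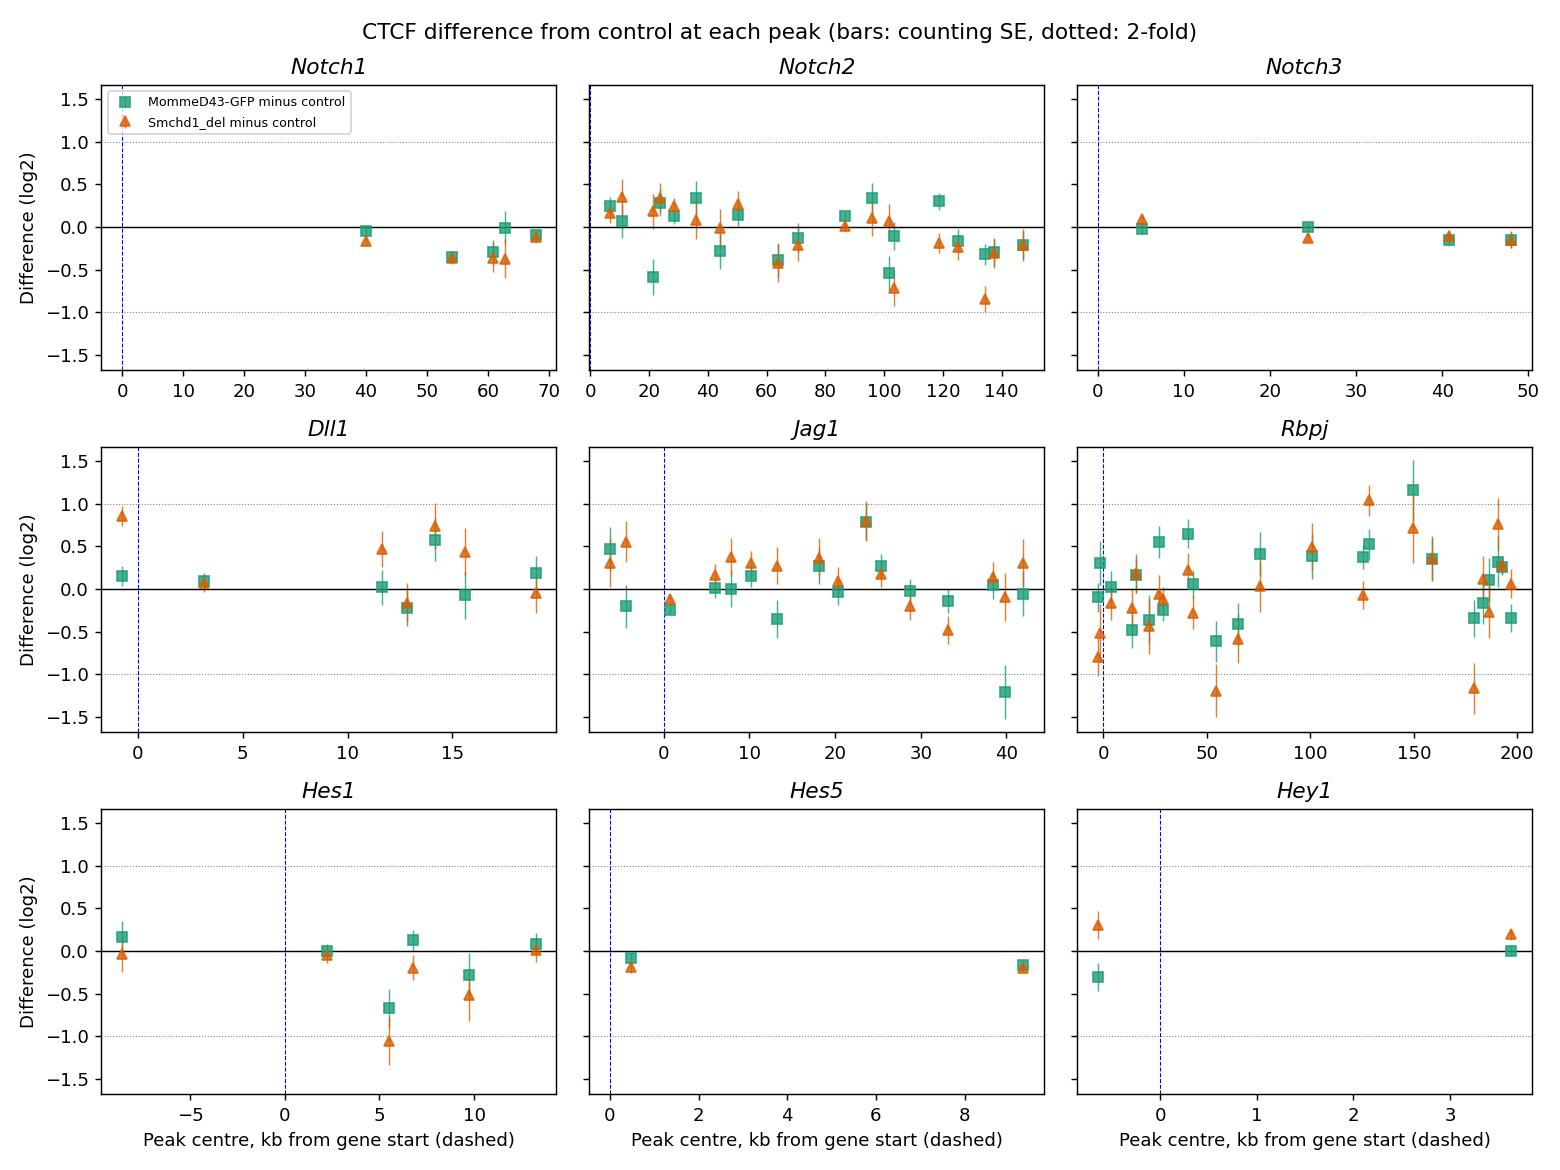
Difference in CTCF from control (log2, vertical axis) at each peak against the distance of the peak centre from the gene start (kb along the direction of transcription), in 1 panel per gene, for MommeD43-GFP (green squares) and Smchd1_del (orange triangles). Bars are counting SE and dotted lines mark 2-fold; all points of *Notch1* lie below 0, and the points past 2-fold belong to *Jag1*, *Rbpj* and *Hes1*.

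How the MommeD43 mutation affects CTCF occupancy was the question of the comparison with control. Against control, 1 of the 85 peaks was at least 2-fold higher (1.18%), an intronic peak of *Rbpj*, and 1 at least 2-fold lower, downstream of *Jag1*. Over all merged peaks 2.08% were at least 2-fold higher and 0.718% lower. At 1.5-fold, 3 were higher and 4 lower, against 8.64% and 5.84% of all peaks. A difference outside its 95% counting interval was seen at 26 of the 85 peaks (30.6%), against 32.3% of all peaks. The median difference of the 85 was 0.00 (range -1.21 to 1.16), and 43 lay above 0 and 42 below. Over all peaks the median was 0.01, and 50.8% lay above 0.

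The comparison of the null with control asked the same of the loss of *Smchd1*. It gave 1 peak at least 2-fold higher, at *Rbpj*, and 3 lower, a pair at *Rbpj* and 1 at *Hes1*. Over all peaks 3.31% were at least 2-fold higher and 1.85% lower. At 1.5-fold, 6 were higher and 6 lower, against 10.7% and 10.3% of all peaks. Of the 85 peaks 27 (31.8%) lay outside the counting interval, against 35.9% of all. The median difference was -0.01 (range -1.19 to 1.04), with 42 above 0 and 43 below. Over all peaks the median was -0.04, and 46.6% lay above 0.

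Set against each other, MommeD43-GFP was at least 2-fold higher than the null at 0 of the 85 peaks and lower at 1, the peak downstream of *Jag1*. Over all peaks these shares were 1.26% and 1.08%. At 1.5-fold, 5 were higher and 7 lower, against 7.93% and 6.13%, and 26 (30.6%) lay outside the counting interval, against 29.0%. The median was 0.02 (range -1.11 to 0.82), and over all peaks it was 0.03. Across the 3 comparisons between 0 and 3 of the 85 peaks passed 2-fold in a given direction, so these shares rest on very few peaks and lie near the background. All 3 comparisons use the same 3 columns and are not independent of each other.

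**Figure D4:**
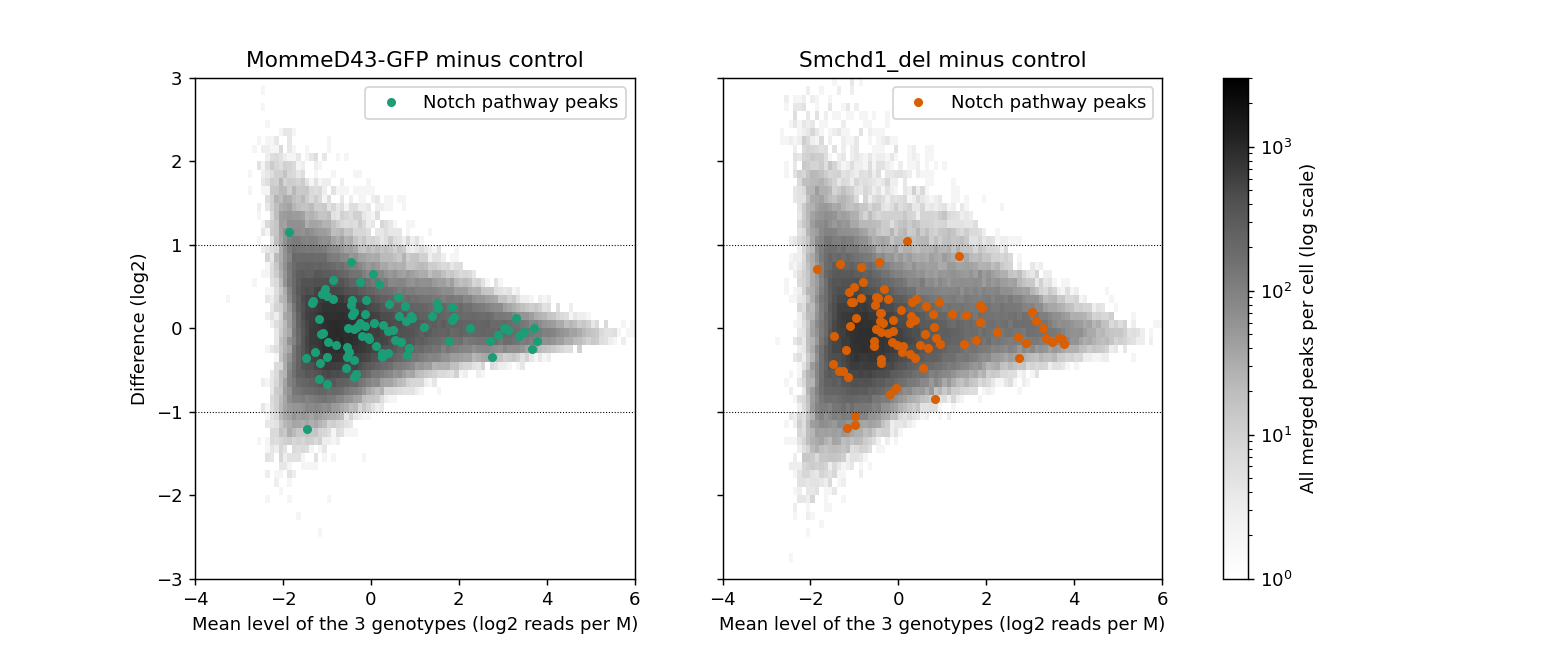
Difference from control (log2, vertical axis) against the mean level of the 3 genotypes (log2 reads per M, horizontal axis) for MommeD43-GFP (left) and Smchd1_del (right). Coloured points are the 85 peaks of the Notch pathway genes, the grey scale counts all 225769 merged peaks per cell on a log scale, and dotted lines mark 2-fold; the 85 points lie within the cloud of all peaks, and the points past 2-fold have mean levels of at most 0.19.

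Differences were largest among the shortest peaks and smallest among the longest. Between these classes the fall with length was not even in the null, where the SD was 0.36 from 1 to 2 kb and 0.41 from 2 to 5 kb. In MommeD43-GFP these SDs were 0.27 and 0.20. The differences of the 85 peaks had an SD of 0.35 for MommeD43-GFP and 0.42 for the null, against 0.43 and 0.51 over all peaks. Among the 37 peaks under 1 kb they reached 1.21 and 1.19 in size. Among the 8 peaks of 5 kb or more they reached 0.35 and 0.36, both at the 3′ end of *Notch1*.

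The other genes of the pathway were read in the same windows from a list of 46 genes. It holds the remaining receptor *Notch4*, further ligands, the *Hes* and *Hey* relatives, the Mastermind coactivators, subunits of γ-secretase (the protease that frees the receptor's intracellular domain), glycosyltransferases that modify the receptors, and regulators such as *Numb* and *Fbxw7*. All 46 genes had peaks, 389 in all. In MommeD43-GFP 8 of the 389 peaks were at least 2-fold above control (2.06%), at 4 genes, and 0 were 2-fold below. In the null 14 were above (3.60%), at 8 genes, and 4 below (1.03%), at 4 genes. Their median differences were 0.00 and -0.02. These shares were again near those over all peaks.

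Among these genes, *Maml2*, which encodes a Mastermind coactivator of the NOTCH and RBPJ complex, had the most, with 5 of its 52 peaks at least 2-fold above control in the null, where 1 was 2-fold below, and 3 above in MommeD43-GFP. Over all peaks the shares above control were 3.31% and 2.08%. A peak of *Fbxw7*, the ubiquitin ligase subunit that marks the NOTCH intracellular domain for degradation, stood at -1.45 in control, 0.22 in the point mutant and 0.63 in the null (chr3:84906301-84907050). The single peak at *Hes6* stood at -1.001, -0.77 and -2.60 (chr1:91401451-91401900), and its null difference from control was -1.60 ± 0.40. These were chosen after their values were seen. Of the genes with at least 3 peaks, the 3 whose median differences from control were nearest to those of all 85 peaks were *Kat2a*, *Numbl* and *Itch*, at distances of 0.01, 0.04 and 0.04. That distance is Euclidean over the 2 medians, MommeD43-GFP and null, and rests on 4, 6 and 14 peaks.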

How the data were processed

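The 75-bp single-end reads of the CTCF ChIP-seq were processed by the authors. Per the labels and the methods, trimming used cutadapt 2.9 through Trim Galore 0.4.4, quality control FastQC 0.11.8, alignment to GRCm38 Bowtie2 2.3.4.1, file handling SAMtools 1.7 and later steps R 4.2.0. The authors called peaks in SeqMonk once per genotype, on its set of libraries, and merged those that overlapped. Each deposited value is a log2 of reads per M of library, averaged by the authors over the libraries of a genotype. Duplicate removal is not given in the sources used here. The columns were mapped to control, MommeD43-GFP and Smchd1_del by name. Single libraries and the input were not analysed here.

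Last peak ends were checked against the chromosome lengths of the RefSeq GRCm38.p6 genome. The lowest value of a column stands for 0 reads, entered as 0.9, which gave library size and reads per peak. The counting SE of a value is that of the recovered reads over the libraries, and intervals are 95%. A difference of 1 on the log2 scale (2-fold) was counted, and no test was run.

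Named peaks are, for each gene, the tallest, the one with the largest difference in each comparison, all within 1 kb of an annotated start, all with a core motif and all at least 2-fold apart. Not every named peak is described above, for example 1 of *Notch1* and some of *Rbpj*. The 9 genes, the list of 46 and this rule were chosen with earlier results of these data known. Promoter sequences came from a RefSeq table (GRCm38.p6) in which 7 of the 9 genes matched by symbol; *Hes1* and *Hey1* did not. Alternatives were quantile normalization, a loess trend on level, centred columns, centring in 20 GC bins, pseudocounts of 0.1 and 1, a level filter, other flanks, 1.5-fold and division by length; gene medians and the direction of all calls under quantile, loess and GC settings were added after seeing the data. The scripts were tested on simulated data. The scripts ran in Python 3.11.15 with scipy 1.17.1 and pandas 2.3.3 on numpy 2.4.6, loess came from statsmodels 0.14.6, and plots from matplotlib 3.10.9.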

Additional observations from a re-analysis of the deposited data

How the results depend on the processing

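The medians over the 85 peaks stayed within a 95% interval of the ordered differences under every alternative run for them. Its ends are differences of single peaks, -0.10 and 0.08 for MommeD43-GFP against control. It treats the peaks as independent, although many are neighbours at the same gene and all come from the same pooled columns. It therefore does not cover the spread between lines and only gives a scale for the shifts. The counts of peaks at least 2-fold apart did not hold. For MommeD43-GFP against control the count of 2 became 1 with quantile normalization, 1 with the loess trend removed, 0 with a pseudocount of 0.1, 0 with a pseudocount of 1, 0 among the 62 peaks that reach the median level, 1 with no flank, 4 with a flank of 50 kb (of 182 peaks) and 7 at 1.5-fold. For the null against control the count of 4 became 2 with GC bins centred (losing 1 peak at *Rbpj* and 1 at *Hes1*), 0 with either pseudocount, 1 at or above the median level and 12 at 1.5-fold. For MommeD43-GFP against the null the count of 1 became 0 with either pseudocount, at or above the median level and with no flank, and 12 at 1.5-fold. A pseudocount shrinks differences at low levels by construction. The core motif share of 1.18% became 28.2% with the relaxed form. Of 87 values at named peaks, 11 moved beyond their 95% counting interval with GC bins centred and 12 with a pseudocount of 1. Each gene median was set against the range from the lowest to the highest difference among the gene's own peaks. That range is narrow where peaks are few, as for the 2 peaks of *Hes5* in the null (-0.19 to -0.18). Of the 18 gene medians against control, 4 left this range with GC bins centred (*Notch3* and *Hes5* in MommeD43-GFP, *Hes5* and *Hey1* in the null). With loess and with quantile normalization 2 each did (*Notch3* and *Hes5* in the null, to -0.16 and -0.23, and to -0.15 and -0.22). The sign of a gene median turned with GC bins for *Notch3* (0.01 in both mutants), *Jag1* in MommeD43-GFP (0.02) and *Hes1* in the null (0.00), and with loess for *Rbpj* in the null (0.01). Over all peaks, the share of 2-fold calls that were higher was 74.4% for MommeD43-GFP against control, and 52.7%, 43.1% and 61.5% with quantile normalization, loess and GC bins. For the null it was 64.1%, and 63.5%, 67.5% and 58.7%. For MommeD43-GFP against the null it was 53.8%, and 38.8%, 26.0% and 49.6%. No paired analysis was possible because the table holds 1 pooled column per genotype, and leaving out each replicate was not run for the same reason. Depth limits the peaks near the lowest levels, where as few as 7.49 reads per library stand behind a value.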
